A study of Arabidopsis thaliana with 6 samples.

Results

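Transcripts of 10 genes for vacuolar and papain-type cysteine proteases, of 27444 genes in the tables, were compared between *lon1-2atg5-1* and *atg5-1* seedlings of *Arabidopsis thaliana*. They were taken by gene identifier and comprised the 4 vacuolar processing enzymes αVPE (AT2G25940), βVPE (AT1G62710), γVPE (AT4G32940) and δVPE (AT3G20210), and 6 papain-type proteases, CEP1 (AT5G50260), CEP2 (AT3G48340), CEP3 (AT3G48350), RD21A (AT1G47128), RD19 (AT4G39090) and XCP1 (AT4G35350). Both genotypes are T-DNA insertion lines in Columbia-0, and both carry *atg5-1*, an insertion in ATG5 (AT5G17290), whose product is needed to form autophagosomes. The double mutant also carries *lon1-2*, an insertion in LON1 (AT5G26860), the gene for a protease of the mitochondrial matrix. The comparison therefore asked how transcript levels differed with the loss of Lon1 where autophagy was already impaired. Plants were untreated seedlings grown under a long-day light cycle, with an age of 7 days in the series description and 10 days in the study's methods, and each genotype had 3 libraries. Columbia-0 and single *lon1-2* libraries were not analysed here.

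Vacuolar processing enzymes, also called legumains, cleave proteins after asparagine and so mature other vacuolar proteins. βVPE is the main form of seeds, where it processes storage proteins, αVPE and γVPE are the forms of vegetative organs, and δVPE is known from the seed coat. Papain-type proteases are made as inactive precursors. RD21A and RD19 are named for their response to dehydration, XCP1 clears the contents of dying xylem vessels, and the CEP proteases carry an ER retention signal and are known from cells undergoing programmed cell death.

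The signal that sets the CEP proteases apart can be read in their genes. These are the last 30 bases of 4 coding sequences, read from the RefSeq annotation of TAIR10.1 and written 5′ to 3′ on the coding strand. Capitals mark the last 4 codons before the stop codon, and XCP1 is shown as a papain-type gene without the signal.
CEP1 (chr5:20456833-20456862, plus strand): tccttggactcgcttAAGGATGAACTCtaa
CEP2 (chr3:17899045-17899074, plus strand): aaagacggtgatgtcAAAGATGAGCTCtag
CEP3 (chr3:17907341-17907370, plus strand): gttcgtgatgatgttAAAGACGAGCTCtag
XCP1 (chr4:16811846-16811875, plus strand): atggcctcatatcctACCAAGACCAAGtga
In CEP1, CEP2 and CEP3 these codons read lysine, aspartate, glutamate and leucine (KDEL), with different bases in each gene. Among 31 papain family genes these 3 were the only ones to end this way.

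Depth was even, with 21964283 to 23929531 counts per library. In *lon1-2atg5-1* LON1 had 196, 126 and 95 counts against 671, 528 and 602 in *atg5-1*, a log2 fold change of -2.10 ± 0.22 (SE, edgeR adjusted p = 0.000141), in the direction of the label. ATG5 had 516, 520 and 436 counts in *atg5-1*, compared with 1319, 930 and 636 in the double mutant, and as both lines carry its insertion this count checks no label. The 3 double mutant libraries lay farther from each other than the *atg5-1* libraries, with a chi-square per degree of freedom of 12.1 to 31.8 between pairs against 3.83 to 5.65. Replicate 1 of *lon1-2atg5-1* was the farthest of its genotype from the *atg5-1* mean for 9 of the 10 proteases, and replicate 3 was the nearest for 7. Without *lon1-2atg5-1* replicate 1 the same number of proteases, 8, was called.

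A gene was called when its edgeR adjusted p was under 0.05 and its fold change was over 1.5. By that rule αVPE, γVPE, CEP1, CEP2, RD21A and XCP1 fell in *lon1-2atg5-1*, βVPE and δVPE rose, and RD19 and CEP3 were not called. That made 6 of 10 lower and 2 of 10 higher, beside 13.7% and 14% of all 20157 genes tested, or 27.7% in either direction. All but δVPE were over the low-count filter (about 10 counts, which 3 libraries had to reach) in every library, and δVPE was over it in all 3 double mutant libraries but in only 1 *atg5-1* library, so that its direction was largely set by the filter. The median log2 fold change of the 10 genes was -0.76, and that of all genes tested was -0.00034. For all 10 genes the libraries of the 2 genotypes did not overlap in normalised counts, which held for 63.2% of genes tested. As whole seedlings were measured in bulk, fewer cells of a type and less RNA per cell cannot be told apart in any of these values.

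**Figure D1:**
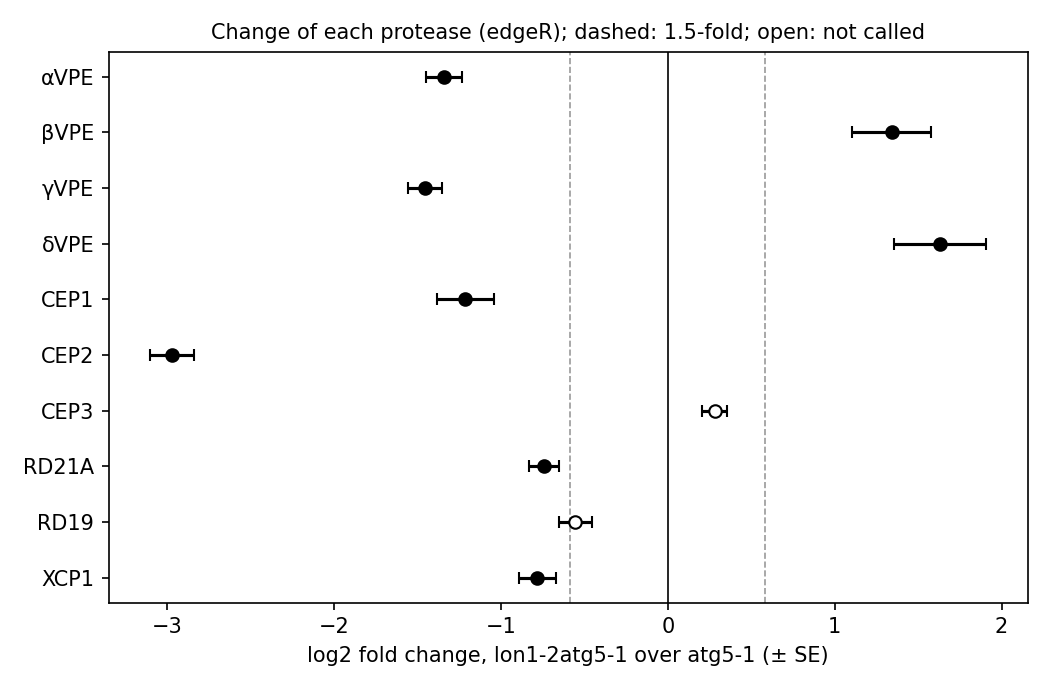
Log2 fold change of each protease in *lon1-2atg5-1* over *atg5-1* (horizontal axis) with its SE from edgeR, 3 libraries per genotype. Dashed lines mark a 1.5-fold change and open points genes that were not called; CEP2 lies farthest to the left at -2.97, and βVPE and δVPE are the filled points on the right.

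The 4 vacuolar processing enzymes moved in both directions. γVPE (chr4:15900270-15903523, minus strand, TAIR10.1, 9 exons), the most abundant form of vegetative organs, had 9614, 10454 and 10410 counts in *atg5-1*, compared with 3315, 3928 and 3825 in *lon1-2atg5-1*. Every double mutant library was thus under every *atg5-1* library, and the log2 fold change was -1.45 ± 0.10 (SE, adjusted p = 2.74e-05), a 2.74-fold fall. αVPE (chr2:11063301-11066184, minus strand, 8 exons), the other vegetative form, had 304, 246 and 283 counts in *atg5-1*, compared with 105, 105 and 117 in *lon1-2atg5-1*. It fell 2.53-fold (log2 fold change -1.34 ± 0.11, SE, adjusted p = 5.17e-05). The coding sequences of αVPE and γVPE are 82.8% identical over 1437 aligned bases, the closest pair among the 4, whose other pairs are 62.2% to 65.3% identical.

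βVPE (chr1:23223874-23226983, minus strand, 9 exons), the seed form, had 84, 108 and 123 counts in *atg5-1*, compared with 328, 281 and 187 in *lon1-2atg5-1*. All 3 double mutant libraries were higher, with replicate 3 the nearest to *atg5-1*, and the log2 fold change was 1.34 ± 0.24 (SE, adjusted p = 0.002), a 2.54-fold rise. δVPE (chr3:7052347-7054743, plus strand, 8 exons), the seed coat form, was at the low end of what was measured, with 10, 10 and 9 counts in *atg5-1*, compared with 36, 30 and 24 in *lon1-2atg5-1*. The 2 genotypes did not overlap, and the log2 fold change was 1.63 ± 0.28 (SE, adjusted p = 0.00159), or 3.09-fold. Since δVPE entered the test through the double mutant libraries, a test could show little but a rise, and with at least 10 counts asked of every library it was not tested. On the log2(FPKM + 1) scale in limma the change of δVPE was 0.49, under the fold threshold. An annotated antisense RNA, AT3G03955, shares 220 exonic bases with δVPE, and since no strand setting of the counting is given, their reads could not be separated.

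These changes altered the make-up of the VPE transcripts, described here in FPKM (fragments scaled to exon length and library depth), which can be compared between genes. Summed over the 4 genes the level was 206, 230 and 231 FPKM in *atg5-1* and 80.8, 94.4 and 82.6 in *lon1-2atg5-1*. γVPE made up 95.3%, 96% and 95.5% of that sum in *atg5-1* and 85.5%, 88.8% and 90.7% in the double mutant. βVPE and δVPE together were 1.12%, 1.3% and 1.45% in *atg5-1* and 11.3%, 8.42% and 6% in *lon1-2atg5-1*. The share of αVPE was 3.12% ± 0.449 (SD, n = 3) and 3.11% ± 0.256 (SD, n = 3). The ratio of γVPE to βVPE was 95.6, 80.9 and 70.7 for *atg5-1* against 8.44, 11.7 and 17.1 for the double mutant. γVPE thus stayed the main form in every library, with a smaller share in the double mutant.

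**Figure D2:**
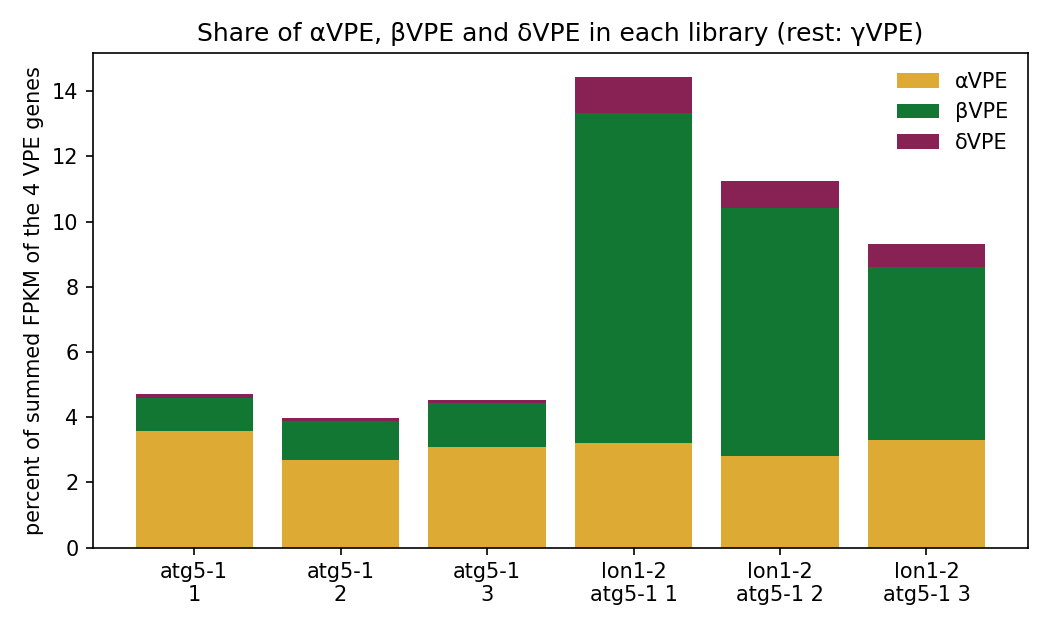
Percent of the summed FPKM of the 4 VPE genes (vertical axis) that αVPE, βVPE and δVPE took in each of the 6 libraries, stacked; the rest to 100% is γVPE. The αVPE segment is of like size in both genotypes, and the βVPE segment grows from at most 1.35% in *atg5-1* to at least 5.31% in *lon1-2atg5-1*.

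Genes for seed storage proteins, which VPEs process, were detected beside βVPE in the double mutant. Of 9 storage genes 6 were over the low-count filter, each in the double mutant libraries alone, so their direction was fixed by the filter and their counts are given as a description. SESA5, an albumin gene, had 1, 0 and 0 counts in *atg5-1*, compared with 136, 129 and 59 in *lon1-2atg5-1*. CRU3, a cruciferin gene, had 2, 1 and 0 counts against 113, 118 and 75, and SESA2 had 0, 1 and 1 against 57, 115 and 38. With at least 10 counts asked of every library no storage gene was called. Summed over the list the level was 0.361 to 0.761 FPKM in *atg5-1*, and 26.3, 30.3 and 14.1 FPKM in the *lon1-2atg5-1* replicates. Replicate 3 was thus lowest for the storage sum, as it was for βVPE (8.19, 7.18 and 4.38 FPKM), while replicate 2 was highest for the sum and replicate 1 for βVPE. All 6 storage genes over the filter were lowest in replicate 3, like βVPE and δVPE. This order was not particular to seed genes. Replicate 3 was the nearest to the *atg5-1* mean for 7 of the 10 proteases, among them CEP2 and RD21A, which fell. ATG5 was lowest in replicate 3 as well (1319, 930 and 636 counts). In FPKM SESA1, SESA3 and SESA5 were highest in replicate 1, as βVPE and δVPE were, while CRA1, CRU3 and SESA2 were highest in replicate 2. In normalised counts SESA3 was highest in replicate 2 as well (77.2, 78.9 and 51.1). Markers of anthers and the seed coat stayed at 0 to 3 counts in every library. The part of seed material or seed-stage tissue in the βVPE and δVPE result was not tested.

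Promoters were searched on both strands over 250 bases before the annotated start for 6 motifs. The δVPE and XCP1 windows are printed as examples of windows that held a match, and whether any match acts in these seedlings was not tested. Capitals mark the match, positions are counted back from the start, and the sequences run 5′ to 3′ on the coding strand (TAIR10.1).
δVPE (chr3:7052097-7052346, plus strand): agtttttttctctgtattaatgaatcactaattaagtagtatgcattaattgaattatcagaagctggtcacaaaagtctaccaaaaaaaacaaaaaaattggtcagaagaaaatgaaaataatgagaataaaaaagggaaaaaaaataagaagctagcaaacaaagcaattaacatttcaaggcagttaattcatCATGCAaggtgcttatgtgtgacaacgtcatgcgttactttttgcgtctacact
XCP1 (chr4:16810232-16810481, plus strand): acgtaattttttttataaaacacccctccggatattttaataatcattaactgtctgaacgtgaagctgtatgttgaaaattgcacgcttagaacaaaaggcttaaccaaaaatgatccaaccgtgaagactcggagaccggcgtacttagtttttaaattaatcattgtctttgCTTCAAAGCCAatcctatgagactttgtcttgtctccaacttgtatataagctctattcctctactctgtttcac
The δVPE window held CATGCA, the RY element of seed-specific promoters, at bases -54 to -49, as did 8.43% of 27443 promoters. The XCP1 window held CTTCAAAGCCA at bases -75 to -65, a match to the tracheary element regulating element (TERE), which 0.368% of promoters held. Of the other 4 motifs, the W-box core TTGAC, bound by WRKY factors, was in the windows of αVPE, γVPE, CEP2 and CEP3 and in 44.9% of promoters. The dehydration-responsive core GCCGAC was in that of CEP1 and in 2.56% of promoters. The G-box CACGTG (6.49% of promoters) and the mitochondrial dysfunction motif (0.74%) were in none of the 10 windows, which says only that their letters were not found there.

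Of the 3 CEP genes, CEP1 and CEP2 fell and CEP3 was not called. CEP2 (chr3:17897506-17899351, plus strand, 3 exons), known from root tissues, had 2072, 1597 and 1914 counts in *atg5-1*, compared with 198, 231 and 279 in *lon1-2atg5-1*. The fall was 7.83-fold, the largest among the 10 genes (log2 fold change -2.97 ± 0.13, SE, adjusted p = 4.74e-06). CEP1 (chr5:20455317-20457068, plus strand, 3 exons), known from the tapetum, had 330, 357 and 375 counts against 112, 159 and 185 and fell 2.32-fold (log2 fold change -1.21 ± 0.17, SE, adjusted p = 0.000643). CEP3 (chr3:17905725-17907690, plus strand, 3 exons) had 365, 336 and 334 counts in *atg5-1*, compared with 395, 420 and 435 in *lon1-2atg5-1*. Its 1.21-fold difference (log2 fold change 0.28 ± 0.08, SE, adjusted p = 0.0143) was under the fold threshold, and its adjusted p was 0.0529 without *atg5-1* replicate 3 and 0.0521 without *lon1-2atg5-1* replicate 2. In FPKM CEP2 was 5.78, 4.84 and 5.83 times CEP3 in *atg5-1*, against 0.51, 0.56 and 0.653 times in the double mutant, so the order of the 2 genes was reversed. Summed over the 3 genes the level went from 75.4, 64.6 and 74.1 FPKM to 19.5, 22.9 and 23.4 FPKM.

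CEP2 and CEP3 are neighbours on chromosome 3, on the same strand with 6373 bases between them, and their coding sequences are 72.7% identical. Of 3 genes between them in the tables, chosen for their place after the CEP2 values were seen, 2 had reads, and both passed the low-count filter through *atg5-1* alone, so their direction is a description. AT3G48343 had 17, 13 and 16 counts in *atg5-1*, compared with 1, 0 and 2 in *lon1-2atg5-1*, and AT3G48346 had 30, 23 and 23 against 1, 0 and 1. The other, AT3G48344, had no count in any library. CEP3, at the far end of this stretch, was not called.

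Genes of the root epidermis and its hairs were also lower in *lon1-2atg5-1*, the genotype in which CEP1 and CEP2 were lower. Of 8 root epidermis and root cap markers 4 fell, all of them of the epidermis, beside 13.7% of all genes tested. RHD6, also of the epidermis (log2 fold change -0.62, edgeR adjusted p = 0.0586), was not called. Nor were the root cap genes SMB (adjusted p = 0.11), BRN1 (adjusted p = 0.0736) and BRN2 (adjusted p = 0.0625). Without *atg5-1* replicate 2 the number that fell was 7, SMB and BRN1 among them, and BRN1 was also called without *lon1-2atg5-1* replicate 3. COBL9, a root hair gene, changed by -1.82 (log2, edgeR adjusted p = 9.62e-05), the root hair expansins EXPA18 by -1.80 (adjusted p = 4.69e-05) and EXPA7 by -1.79 (adjusted p = 0.000199). The summed level of the 8 was 47.2 to 60.6 FPKM in *atg5-1* and 12.9 to 18.6 FPKM in *lon1-2atg5-1*. Their part in the fall of CEP1 and CEP2 was not tested.

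RD21A and RD19 were the most abundant of the 10 transcripts. RD21A (chr1:17282749-17285749, minus strand, 5 exons), a papain-type protease with a granulin domain, had 24830, 24401 and 24680 counts in *atg5-1*, compared with 13221, 14798 and 16027 in *lon1-2atg5-1*. It fell 1.67-fold (log2 fold change -0.74 ± 0.09, SE, adjusted p = 0.000313), with the *atg5-1* libraries close together and replicate 1 lowest in the double mutant. RD19 (chr4:18215542-18217616, minus strand, 3 exons) had 22002, 20246 and 19232 counts against 12376, 13524 and 15730. Its log2 fold change was -0.55 ± 0.10 (SE, adjusted p = 0.00195), a 1.47-fold difference just under the threshold, and it was called without *atg5-1* replicate 3 (-0.59) or without *lon1-2atg5-1* replicate 3 (-0.63). As a share of the summed FPKM of 31 papain family genes, RD21A and RD19 together took 47.7%, 47.3% and 45.3% in *atg5-1* and 46.3%, 48% and 50.7% in the double mutant. The shares overlapped between genotypes while the sum itself went from 2380, 2360 and 2420 FPKM to 1370, 1500 and 1460 FPKM.

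XCP1 (chr4:16810482-16812077, plus strand, 3 exons) had 234, 214 and 254 counts in *atg5-1*, compared with 131, 137 and 138 in *lon1-2atg5-1*. It fell 1.72-fold (log2 fold change -0.78 ± 0.11, SE, adjusted p = 0.000629). Its relative XCP2 (AT1G20850), which acts in the same vessels, had 337, 370 and 441 counts against 172, 237 and 207 and fell too (log2 fold change -0.89 ± 0.16, SE, adjusted p = 0.00219). The ratio of XCP1 to XCP2 in FPKM was 0.677, 0.564 and 0.562 in *atg5-1* and 0.743, 0.564 and 0.65 in *lon1-2atg5-1*, and overlapped.

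Other genes listed here as xylem vessel markers were lower beside XCP1. Of 11 markers 9 could be tested and 8 were called lower, beside 13.7% of all genes tested. However, VND6, MYB46 and IRX9 were over the low-count filter in all 3 *atg5-1* libraries and in 0, 1 and 2 double mutant libraries. Their direction was thus partly set by the filter. The other 6 were over it in every library, and 5 of these fell. With at least 10 counts asked of every library 5 markers were called, as were 5 without *atg5-1* replicate 3. MC9, a metacaspase of dying vessels, had 1383, 1244 and 1318 counts in *atg5-1*, compared with 145, 149 and 172 in *lon1-2atg5-1* (adjusted p = 5.57e-07). The nuclease BFN1 had 324, 308 and 316 against 71, 60 and 52 (adjusted p = 1.15e-05), and the ribonuclease RNS3 536, 390 and 449 against 134, 142 and 152 (adjusted p = 2.8e-05). Summed over the list the level was 77.3 to 85.7 FPKM in *atg5-1* and 17.1 to 17.5 FPKM in *lon1-2atg5-1*, and most of it came from MC9, RNS3 and BFN1. The cellulose synthase genes of vessel walls, named here after their values were seen, differed less: CESA4 fell 1.89-fold, CESA7 fell 1.52-fold, a call lost without any 1 of 4 libraries (*atg5-1* replicates 1 and 3, *lon1-2atg5-1* replicates 1 and 2), and CESA8 was 1.49-fold lower and not called (adjusted p = 0.0747), except without *lon1-2atg5-1* replicate 3. Whether the reads of MC9, RNS3 and BFN1 came from vessels or from other dying cells was not tested. The part of fewer vessel cells in the XCP1 result was not tested either.

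The order of levels differed between genotypes in the middle of the range. In *atg5-1* it ran from RD21A (572 ± 8.65 FPKM, SD, n = 3) through RD19 (543 ± 26.7), γVPE (212 ± 14), CEP2 (51.9 ± 6.04), CEP1 (9.99 ± 0.826), CEP3 (9.46 ± 0.279), XCP1 (7.38 ± 0.663), αVPE (6.88 ± 0.631) and βVPE (2.63 ± 0.538) to δVPE (0.246 ± 0.0128). Of the neighbours in that order, RD21A and RD19, CEP1 and CEP3, and XCP1 and αVPE overlapped between libraries. In *lon1-2atg5-1* it ran from RD19 (362 ± 31.9 FPKM, SD, n = 3) through RD21A (336 ± 25.1), γVPE (76 ± 7.39), CEP3 (11.3 ± 0.478), βVPE (6.58 ± 1.97), CEP2 (6.47 ± 0.898), CEP1 (4.21 ± 0.927), XCP1 (4.21 ± 0.181) and αVPE (2.66 ± 0.0601) to δVPE (0.755 ± 0.172). There RD19 and RD21A, βVPE and CEP2, and CEP1 and XCP1 overlapped. CEP3 and βVPE therefore ranked above CEP2 or level with it in the double mutant and under it in *atg5-1*. Counted as reads, the 10 genes took 0.261%, 0.261% and 0.26% of each *atg5-1* library and 0.134%, 0.153% and 0.154% of each double mutant library.

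**Figure D3:**
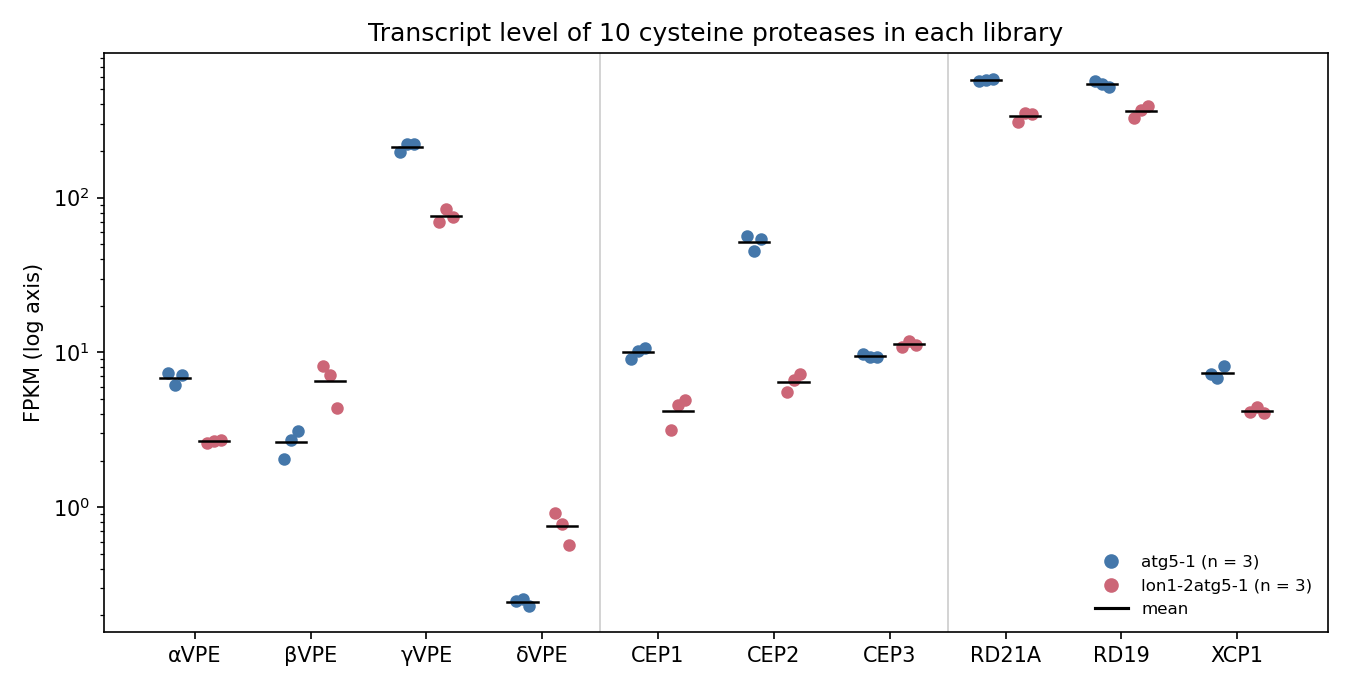
FPKM of each of the 10 proteases (vertical log axis) in the 3 *atg5-1* libraries (blue) and the 3 *lon1-2atg5-1* libraries (red), with black lines at the means. Points of the 2 genotypes are apart for every gene; CEP2 drops from a mean of 51.9 to 6.47 FPKM, and only βVPE, δVPE and CEP3 have their red points above the blue.

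Beyond the 6 papain-type genes, 25 further members of the papain family were in the tables and 18 could be tested. Of these 4 fell and 4 rose (22.2% each), beside 13.7% and 14% of all genes tested. CP2 (AT4G11320) changed most, with 9374, 9501 and 12931 counts in *atg5-1*, compared with 596, 577 and 600 in *lon1-2atg5-1* (log2 fold change -4.16, adjusted p = 2.24e-06). AT3G19390, a granulin-repeat protease like RD21A, had 867, 601 and 617 counts against 152, 173 and 202 (adjusted p = 3.97e-05). DL4135W (AT4G16190) had 15320, 15711 and 15990 against 6970, 7636 and 7784 (log2 fold change -1.06, adjusted p = 4.25e-05), though 486 of its exonic bases lie under AT4G16195 on the opposite strand. The fourth that fell was XCP2. All 4 of these were lower in every double mutant library, as were RD21A and RD19.

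The 4 that rose included genes with few reads. XBCP3 (AT1G09850) had 564, 533 and 525 counts in *atg5-1*, compared with 842, 935 and 934 in the double mutant (log2 fold change 0.75, adjusted p = 0.000108). On the opposite strand XBCP3 shares 135 exonic bases with PUP16 and 66 with the RNA AT1G04737. AT1G29090 had 156, 131 and 158 against 206, 325 and 268 (adjusted p = 0.00493). AT3G49340 had 2, 5 and 6 counts against 33, 30 and 20 (adjusted p = 0.00107), and was over the low-count filter in the double mutant alone, which fixed its direction. F10A12.10 (AT2G27420) had 28, 26 and 37 against 45, 56 and 73 (adjusted p = 0.013, but 0.0511 without *atg5-1* replicate 1 and 0.0505 without *atg5-1* replicate 2), with 272 exonic bases that are 90.1% identical to AT2G27395. In summed FPKM the whole family of 31 dropped by 943.1, and RD21A made up 25.1% of that drop, CP2 20.3%, RD19 19.2%, DL4135W 18.3% and ALP (AT5G60360) 7.55%.

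CEP2, γVPE and DL4135W are also on a list the study made from genes lower in *lon1-2* and higher in *atg5-1*, with these *atg5-1* libraries among its data, so their lower level here is not independent of that list. In its text the study named cysteine-type endopeptidase activity among the terms with that direction. The title of the figure cited there gives the opposite direction.

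Inhibitors and sorting receptors act on these proteases. The share called was 25% of the inhibitors tested, 16.7% of the sorting receptors and 60% of the other vacuolar proteases, beside 27.7% of all genes tested. The first 2 lists were thus under the share of all genes. Of 9 inhibitor genes, 8 were tested: SERPIN1, whose product inhibits RD21A, rose (log2 fold change 0.60, adjusted p = 0.000303), AT5G05110 of the cystatin family fell (-0.66, adjusted p = 0.000144), and 6 were not called. Without *lon1-2atg5-1* replicate 1 SERPIN1 was under the fold threshold (0.54). Of 7 vacuolar sorting receptors, which carry proteases to the vacuole, 6 were tested and VSR7 fell (-0.62, adjusted p = 0.000239), a count that was 0 without *atg5-1* replicate 1 and 2 without *lon1-2atg5-1* replicate 3. Of 6 other vacuolar protease genes 5 were tested. The aspartic protease AT1G62290 rose (1.65, adjusted p = 4.81e-06), while its relative AT4G04460, which shares 213 exonic bases with a gene on the opposite strand, fell (-1.76, adjusted p = 2.03e-05), and so did the carboxypeptidase SCPL48 (-1.12, adjusted p = 3.62e-05).

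ER bodies, compartments in which RD21A precursor is stored, were followed by 8 genes. The share called was 25% of these, 16.7% of green shoot markers and 57.1% of leaf senescence genes tested, beside 27.7% of all genes tested. The β-glucosidases BGLU21 (-1.02, adjusted p = 0.00138) and BGLU22 (-0.98, adjusted p = 0.000436) fell and the other 6 were not called, and since BGLU21 and BGLU22 are 91.5% identical over 1911 bases their counts are uncertain as separate values. Green shoot markers gave a comparison for tissue make-up. Of these 6, RBCS1B, a gene for the small subunit of Rubisco, rose (0.73, adjusted p = 0.000123), though its exons are 90.1% identical to AT5G38410 over 769 bases, and 5 were not called. The sum of the 6 was 28050 to 29390 FPKM in *atg5-1* and 31180 to 33720 in *lon1-2atg5-1*. CAB1 (96.1% to AT1G29910 and AT1G29920), RBCS1A (90.1% to AT5G38420) and LHB1B1 (91.6% to AT2G34420) have near-identical exon stretches too. Their counts are likewise uncertain as separate values. Of 8 leaf senescence genes 7 were tested. SAG13 (3.56, adjusted p = 8.92e-05) and WRKY53 (3.07, adjusted p = 0.00503) rose. WRKY53 had 37, 51 and 36 counts in *atg5-1*, compared with 727, 165 and 154 in *lon1-2atg5-1*, and without replicate 1 of the latter its log2 fold change was 1.96. It also shares 311 exonic bases with AT4G23800 on the opposite strand. SGR1 (-0.84, adjusted p = 3.56e-05) and PPH (-0.78, adjusted p = 7.05e-05), both of chlorophyll breakdown, fell. SAG12, a papain-type protease used as a senescence marker, was at 0 to 1 counts in every library.

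**Figure D4:**
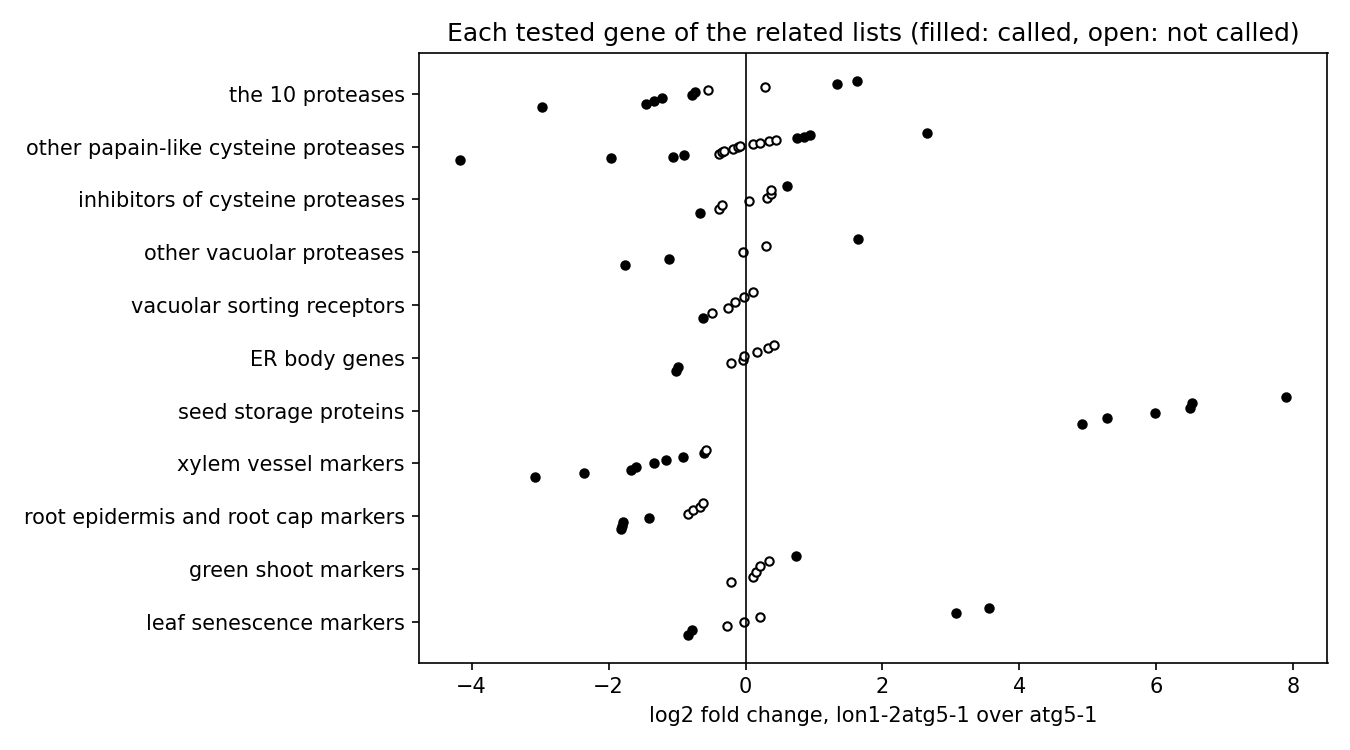
Log2 fold change in *lon1-2atg5-1* over *atg5-1* (horizontal axis) of each tested gene, by list, with filled points for genes called and open points for the rest. Storage genes lie on the right, a place fixed by the low-count filter, which they passed through the double mutant alone, with values that depend on the prior count of the fit; the filter also favoured lower values for 3 xylem markers (VND6, MYB46, IRX9) and for BRN2, and the 10 proteases span -2.97 to 1.63.

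Overlap with neighbouring genes was small for most of the 10. αVPE shares 24 exonic bases with ELF3, γVPE shares 20 with AT4G32930 and XCP1 shares 2 with AT4G35360, all on the opposite strand. None of these 3 neighbours was called, at log2 fold changes of -0.25, 0.24 and 0.22. No gene among the 10 had an exon stretch of 100 bases or more at 90% identity or above in a gene it does not overlap.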

How the data were processed

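Total RNA of seedlings was sequenced as messenger RNA libraries, 3 per genotype in biological triplicate per the series description. The authors trimmed reads, aligned them with HISAT2 and, per the study's methods, deposited gene counts from htseq-count and FPKM from Cufflinks, with TAIR10 as the build in the submitters' processing notes. The strand setting of the counting is not given in the sources used here.

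The deposited counts were tested with edgeR 4.0.16 (quasi-likelihood, filterByExpr, TMM; the filter asks for 0.448 CPM, 10 counts at the median depth, in 3 libraries) on the 2 genotypes in R 4.3.3, with Benjamini-Hochberg adjustment over all 20157 genes tested. Genes were called at an adjusted p under 0.05 where the change also exceeded 1.5-fold. FPKM as deposited by the authors were used for levels between genes and for alternatives in limma 3.58.1. DESeq2 1.42.0 was an alternative. Gene lengths implied by counts and FPKM equalled TAIR10.1 exonic lengths for 23819 of 23819 genes with a count, so sequences and coordinates were read from RefSeq TAIR10.1. The deposited FPKM were thus the same counts scaled by exon length and depth, and the limma alternatives are not a separate quantification. Exons were compared with BLAST 2.17.0.

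The text names all 10 proteases, LON1 and ATG5 as a label check, every papain family gene called, and in other lists up to 3 genes called per direction with the largest change. The proteases, lists and motifs were chosen with earlier results of these data known. Alternatives covered normalization, filters, tool, pseudocount (1 and 0.1), fold threshold, replicate block and leaving out each library. Replicate numbers pair samples only in name: deviations of same-numbered libraries had correlations of -0.00869, -0.169 and -0.0101. Depth was 21964283 to 23929531 counts, and a count of 0 to 3 was read as not detected.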

Additional observations from a re-analysis of the deposited data

How the results depend on the processing

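No protease changed direction under any of the alternatives, which were 14 for each gene and 13 for δVPE. The count of 8 called was 8 with DESeq2, with DESeq2 size factors, without a filter, with an unadjusted p and with the replicate block. It was 9 with library size alone and with limma on log2(FPKM + 0.1), where RD19 passed the fold threshold at -0.59 each time, 7 with at least 10 counts in every library, where δVPE was not tested, 6 at a fold change over 2, and 10 with no fold threshold. With limma on log2(FPKM + 1) it was 8, but RD19 (-0.59) was called and δVPE (0.49) was not. RD19 was called in 5 of its 14 alternatives. Leaving out each library gave 8 to 9 proteases called. The log2 fold change then ranged from 1.18 to 1.56 for βVPE, from -3.09 to -2.85 for CEP2 and from -0.63 to -0.47 for RD19. The 12 papain family calls became 6 at a fold change over 2 and 19 with no fold threshold. The related lists together had 39 calls, and 39 with the replicate block. They had 26 at a fold change over 2, 30 with at least 10 counts in every library, 34 with limma on log2(FPKM + 1) and 55 with no fold threshold. Among the 39 were 6 storage genes whose direction the filter fixed. With at least 10 counts in every library no storage gene was left to test, and 5 xylem markers were called. Limits: 3 libraries per genotype, bulk seedlings, low counts of δVPE, and p-values that set the genotype difference against the spread between these libraries.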
